A study of Homo sapiens with 4 samples.

Results

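In RKO cells, 1944 BRPF3 regions were called both in cells released from mimosine into hydroxyurea and in asynchronous cells, but held no peak in mimosine-arrested cells. They are described here as mimosine-missing regions. RKO is an established human colon carcinoma line. Chromatin immunoprecipitation with sequencing (ChIP-seq) used a home-made rabbit antibody against BRPF3 in 3 conditions. HU cells had spent 22 h in mimosine at 0.5 mM, were released for 3 h, and then received 3 mM hydroxyurea (HU) over 1 h 30 min. Mimosine cells had the same 22 h in mimosine at 0.5 mM and no release. Asynchronous cells were untreated. A rabbit IgG library came from HU cells, and the authors' 3 peak lists were all called against it, so the control matches the HU list alone. Each condition had 1 BRPF3 library and no replicate, so nothing below carries a test between conditions, and a difference between lists describes these libraries.

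The regions were found by merging peaks of the 3 lists that overlapped by 1 bp or more on chromosomes 1 to 22. Merged regions under 8000 bp wide were kept where they held an asynchronous and an HU peak and no mimosine peak. Merging gave 13623 regions on these chromosomes, of which the 1944 made up 14.3% (exact 95% interval 13.7 to 14.9%, covering counting error only). Of the 11369 regions under 8000 bp that were called in both HU and asynchronous cells, 17.1% had no mimosine peak. The other 9425 held a peak in all 3 lists and serve as the comparison. The mimosine-missing regions were chosen by the presence and absence of the authors' peak calls, so their absence from the mimosine list is not a finding, and peak scores and widths, which come from the same peak calls, are given as description.

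BRPF3 is a scaffold protein with bromodomain and PHD finger modules, and it brings MYST-family acetyltransferases, HBO1 above all, to chromatin. Such complexes acetylate histone tails near gene starts and have been linked to the activation of DNA replication origins. Mimosine is a plant amino acid that chelates iron and holds cells around the start of DNA replication. HU starves cells of deoxyribonucleotides, so that forks stall after origins have begun to fire. The mimosine-missing regions are therefore sites listed in cycling cells and in cells stalled in early replication, and not listed in the arrest that comes before it.

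The mimosine-missing regions held 1963 HU and 1971 asynchronous peaks. These were 15.1% of the HU peaks and 15.4% of the asynchronous peaks on chromosomes 1 to 22, but 8.11% and 8.32% of the length those lists covered. Nearly all of these regions were simple sites, with exactly 1 HU and 1 asynchronous peak in 1907 of 1944. This was no particular trait, since 9197 of the 9425 regions in all 3 lists also held exactly 1 of each. The mimosine list as a whole was the shortest, with 11532 peaks of median width 1855 bp, against 13431 of 2898 bp in HU and 13160 of 2644 bp in asynchronous cells. The part of this in the absence of single peaks was not tested. How many reads each library had is unknown, so the absence of a peak says that none was listed, not that BRPF3 was absent.

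Mimosine-missing regions were narrow. Their median width was 1776 bp, with quartiles at 1375 and 2283 bp. In regions of all 3 lists the median was 3446 bp and the quartiles 2696 and 4445 bp. They were wider than sites of a single list, which had medians of 1112 bp for 1110 HU-only and 966 bp for 671 asynchronous-only regions of the same width limit. Within the mimosine-missing regions the HU peaks covered a median of 1650 bp and the asynchronous peaks 1534 bp. Only 149 of the 1944 were wider than 3000 bp and 40 were wider than 4000 bp.

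Their scores lay in the lower part of both lists. The score is the authors' own value for a peak and was read as 10 times the negative base-10 logarithm of the peak caller's p-value, from the look of the lists, which begin at 50. To set lists side by side, each peak was given its rank percentile, where 100 is the highest score in its own list, and a region took that of its highest peak. Mimosine-missing regions had a median rank percentile of 17.2 in HU cells (interquartile range 10.7 to 23.9) and 15.8 in asynchronous cells (9.28 to 23.6). Regions in all 3 lists had medians of 61.5 and 60.7. HU-only regions lay lower still, at a median of 6.87 in the HU list, and asynchronous-only regions at 6.06 in the asynchronous list. The mimosine-missing regions were thus placed between single-list and 3-list regions in both width and rank.

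They were not only the weakest calls. In 882 regions (45.4%) both the HU and the asynchronous peak scored 100 or more, in 214 (11.01%) both scored 200 or more, and in 3 both scored 500 or more. Both scored under 100 in 481 regions (24.7%). The number of such regions depended on the score at which peaks were listed. With peaks merged anew, it was 883 with HU and asynchronous peaks of score 100 or more, 3374 with mimosine peaks of score 100 or more, and 357 with the 5766 top peaks of each list. A rank percentile of 50 or more was reached in 5 regions in the HU list and in 13 in the asynchronous list, and in 1 region in both.

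The share of regions without a mimosine peak went with rank. Bands of 10 rank percentiles of the HU list gave 91.4% without a mimosine peak in the lowest band (447 of 489), then 81.2%, 44.9%, 12.7% and 3.57% in the fifth (46 of 1290). In the asynchronous list the same bands gave 88.3% (542 of 614), 72.5%, 37.9%, 13.6% and 3.90% (49 of 1258). From rank percentile 70 upward, 1 of 3612 regions lacked a mimosine peak by HU rank and 0 of 3522 by asynchronous rank. Most of the change thus fell between rank percentiles 10 and 40 in both lists.

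Where the mimosine list did hold a peak at the lowest ranks, its score was close to the lowest listed. Among 72 regions of all 3 lists in the lowest asynchronous band, the mimosine peak had a median score of 62.5, and 88.9% of these peaks scored under 100. The median was 72.1 in the next band, 86.2 at ranks 20 to 30, 116 at 30 to 40 and 174 at 40 to 50. Scores under 100 were carried by 76.1%, 61.8%, 39.7% and 15.6% of the mimosine peaks in these bands. By HU rank these medians were 61.3, 64.3, 78.6, 108 and 164. Most mimosine-missing regions, 1713 of 1944, ranked under 30 in the asynchronous list, where these medians were under 100.

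**Figure D1:**
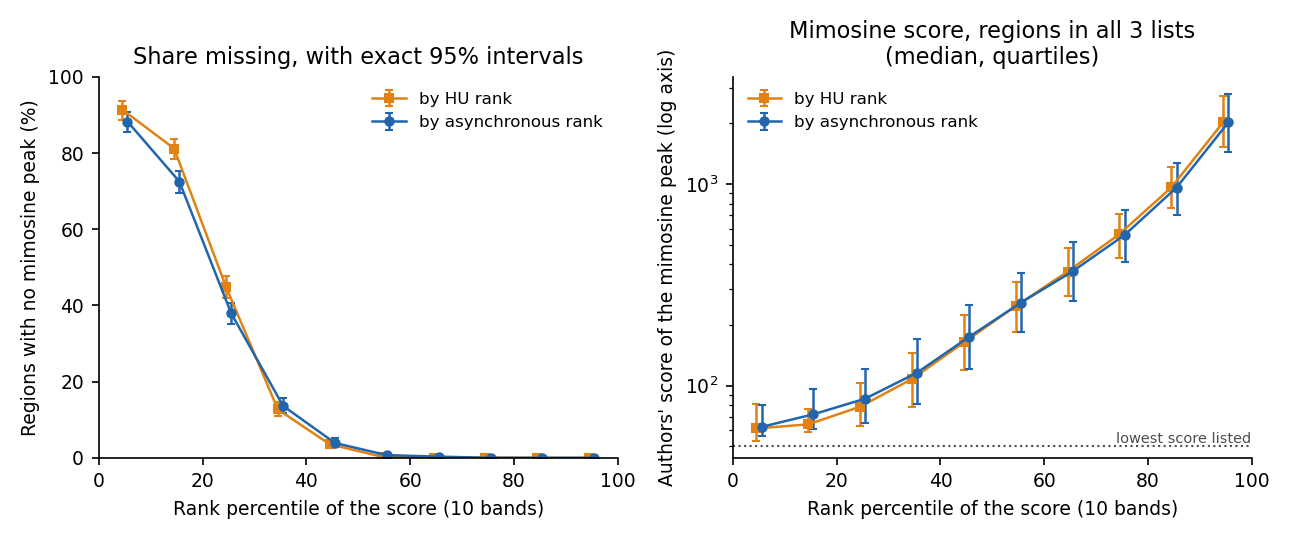
Left, the share of regions called in HU and asynchronous cells that had no mimosine peak (%), by band of 10 rank percentiles of the HU list (squares) and of the asynchronous list (circles), with exact 95% intervals. Right, the authors' score of the mimosine peak in regions of all 3 lists (log axis; median and quartiles) by the same bands. The share is 91.4% and 88.3% in the lowest bands and under 4% in the fifth, and the median mimosine score is 61.3 and 62.5 in the lowest bands, near the lowest listed score of 50.

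Rank in HU cells and rank in asynchronous cells both went with the absence of a mimosine peak. At asynchronous ranks of 20 to 30, the share without a mimosine peak was 78.4% for HU ranks under 10 (29 of 37), 70.05% for 10 to 20 (152 of 217), 43.8% for 20 to 30 (221 of 504), 13.9% for 30 to 40 (41 of 296) and 8.82% for 40 to 50 (9 of 102). At HU ranks of 20 to 30, the share was 76.9% for asynchronous ranks under 10 (60 of 78), 60% for 10 to 20 (159 of 265), 29.5% for 30 to 40 (75 of 254) and 19.4% for 40 to 50 (13 of 67). The share thus went with the HU rank at a fixed asynchronous rank, and with the asynchronous rank at a fixed HU rank. No test was made, since regions of 1 library are not replicates.

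**Figure D2:**
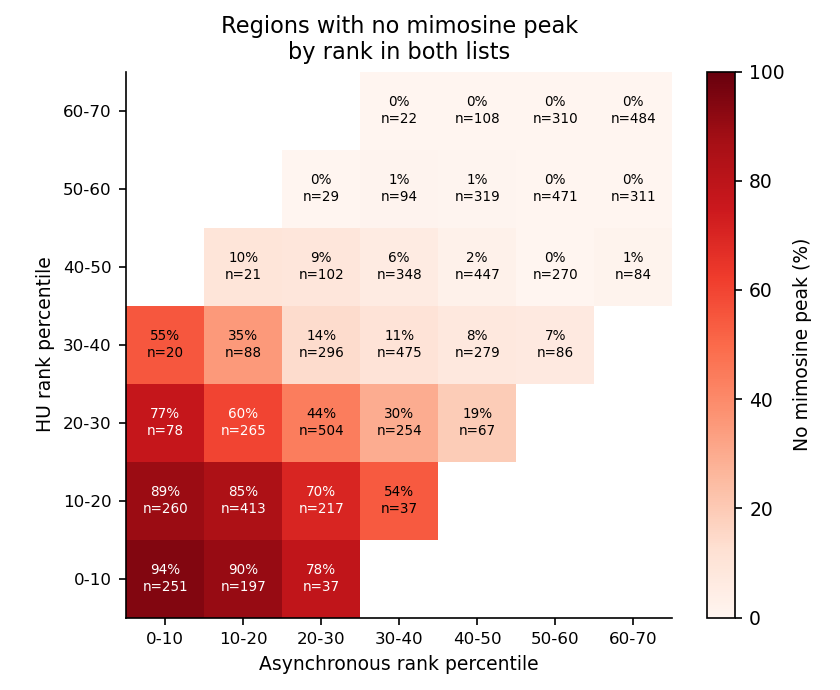
Share of regions with no mimosine peak (%) by asynchronous rank percentile (horizontal) and HU rank percentile (vertical), with the number of regions n in each cell; cells with under 20 regions are blank. The share is 94.4% where both ranks are under 10 and 2.46% where both lie between 40 and 50, and it changes along both axes.

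At like asynchronous rank, mimosine-missing regions were narrower and stood lower in the HU list than regions in all 3 lists. At asynchronous ranks of 20 to 30, the median width was 2001 bp in 453 mimosine-missing regions and 2363 bp in 741 regions of all 3 lists. In the lowest band the medians were 1437 and 1987 bp, and at ranks of 40 to 50 they were 2684 bp in 49 and 2882 bp in 1209 regions. The median HU rank at asynchronous ranks of 20 to 30 was 21.7 in mimosine-missing regions and 30.6 in regions of all 3 lists, with interquartile ranges of 16.8 to 25.95 and 24.8 to 37.4. At asynchronous ranks of 40 to 50 the median HU ranks were 34.8 and 47.0.

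The mirror comparison showed the same direction for rank but not for width. At HU ranks of 20 to 30, the median asynchronous rank was 21.5 in mimosine-missing regions and 27.3 in regions of all 3 lists, and at HU ranks of 40 to 50 it was 35.2 and 44.0. Width at HU ranks of 20 to 30 was 2075 and 2178 bp, but at 40 to 50 it was 3099 bp in 46 mimosine-missing regions and 2815 bp in 1244 regions of all 3 lists. In the lowest HU band it was 1362 bp in 447 mimosine-missing regions and 1134 bp in the 42 regions of all 3 lists. The narrower width at like rank thus depended on which list ranked the regions and on the band.

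**Figure D3:**
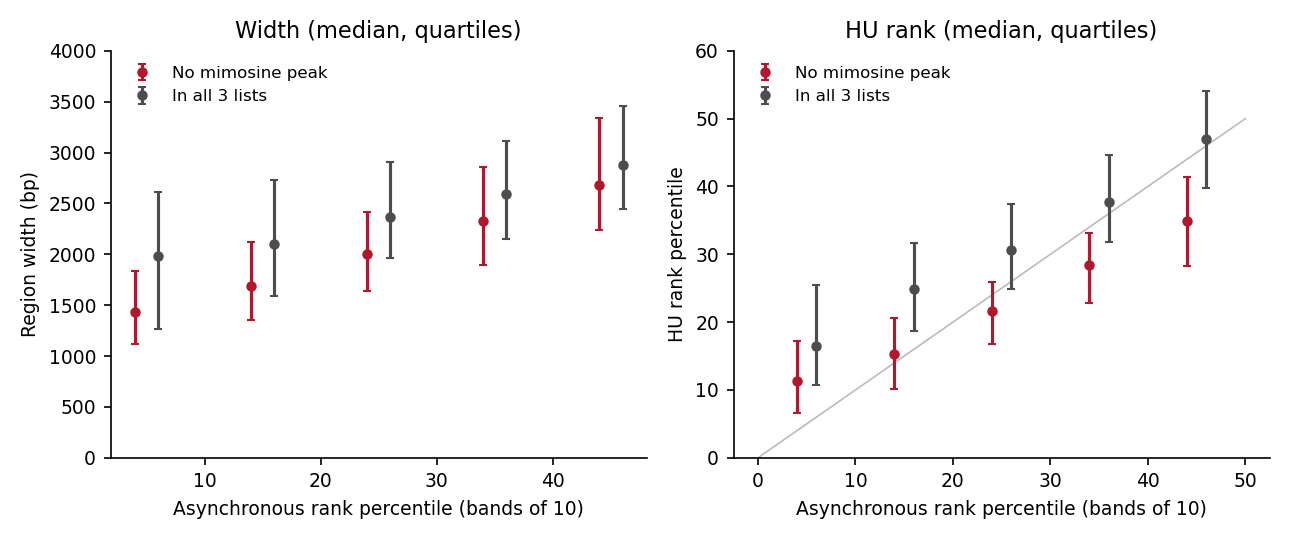
Width (left, bp) and HU rank percentile (right) of mimosine-missing regions and of regions in all 3 lists, by band of asynchronous rank percentile up to 50; points are medians and bars quartiles, and the grey line marks equal ranks. In each of the 5 bands the mimosine-missing regions have the lower median, for example 2001 against 2363 bp and HU rank 21.7 against 30.6 at asynchronous ranks of 20 to 30.

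The HU and asynchronous peaks of a mimosine-missing region lay at nearly the same place. In the 1907 regions with 1 peak of each, the shared base pairs made up a median of 0.820 of the union (interquartile range 0.730 to 0.893), against 0.866 (0.794 to 0.920) in 9197 regions of all 3 lists. Peak centres were a median of 95.5 bp apart, against 138 bp in the wider regions of all 3 lists. Each peak covered at least 50% of the other in 98.0% of mimosine-missing regions and in 99.5% of regions in all 3 lists. At asynchronous ranks of 20 to 30 the shared part was 0.847 and 0.829, and in the lowest band 0.785 and 0.703, so the lower pooled value was not seen within these bands.

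HU peaks were slightly wider than asynchronous peaks at mimosine-missing sites. The median HU to asynchronous width ratio was 1.07 (interquartile range 0.946 to 1.23), and the HU peak was the wider in 64.8% of regions (exact 95% interval 62.6 to 66.9%). In regions of all 3 lists the ratio was 1.09 and the HU peak was the wider in 75.3% (74.4 to 76.1%). At asynchronous ranks of 20 to 30 the ratios were 1.04 and 1.13. The HU rank exceeded the asynchronous rank in 52.3% of mimosine-missing regions (50.01 to 54.5%), and the median difference was 0.56 rank percentiles. In regions of all 3 lists these values were 56.1% (55.1 to 57.1%) and 0.19 rank percentiles.

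By the lower of its 2 ranks, the leading mimosine-missing region was chr2:20187572-20190615 (positions are in hg19 throughout, counted from 1). Its HU peak scored 566, at rank percentile 51.6, and its asynchronous peak 856, at 63.5. Both peaks were close to 3 kb wide, at 2996 and 2999 bp, and the nearest mimosine peak lay 58.5 kb away. It was followed by chr22:21456790-21459797, with HU rank 48.5 and asynchronous rank 55.5, and a gap of 99.3 kb to the nearest mimosine peak. In both of these the site was better ranked in asynchronous than in HU cells.

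The third, chr11:128376320-128382737, was also the widest mimosine-missing region at 6418 bp. There the HU peak covered the whole region, the asynchronous peak covered 4593 bp, and a mimosine peak lay 3.08 kb away. Its HU rank was 48.1 and its asynchronous rank 62.1. The fourth was chr17:66286146-66289482, with HU rank 46.7 and asynchronous rank 48.9. At the fifth, chr11:58938852-58941026, the HU peak covered 2175 bp at rank 45.9 and the asynchronous peak 1474 bp at rank 46.5.

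The sixth, chr3:56590373-56593246, was better ranked in HU cells, at 56.1 against 45.7 in asynchronous cells, and its nearest mimosine peak was 122 kb away. The remaining 4 were chr1:63248973-63251729, chr11:73018000-73020912, chr10:104472162-104475918 and chr6:18154170-18156876, with HU ranks of 44.6 to 49.7 and asynchronous ranks of 43.6 to 48.8. In 9 of the 10, the gap to the nearest mimosine peak was 25.97 kb or more. The exception was the region on chromosome 11 that was also the widest.

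The other widest regions had lower ranks. The region chr17:62626408-62632624 spanned 6217 bp and held 2 HU and 2 asynchronous peaks, with HU rank 24.6 and asynchronous rank 19.6. At chr10:17063802-17069808 a single HU peak of 6007 bp ranked 22.98, beside an asynchronous peak of 4914 bp at rank 19.98. The region chr9:98075146-98081102 had HU rank 20.5 and asynchronous rank 34.3. At chr20:30284968-30290681 the HU peak of 5714 bp ranked 33.4, while the asynchronous peak covered 1997 bp at rank 2.99. In the last of these the call rested far more on HU cells than on asynchronous cells.

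The most unequal regions, picked after their values were seen, show how far the 2 lists could differ. At chr7:81250964-81256045 the HU peak scored 1069, at rank 70.9, and the higher of 2 asynchronous peaks 190, at rank 23.6, with a mimosine peak 1.78 kb away. In the other direction, chr15:41244219-41247037 had an HU peak of 1262 bp at rank 7.54 and an asynchronous peak of 2819 bp at rank 53.7.

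Few regions lay near the limits of the rule. No mimosine-missing region was between 6418 and 8000 bp wide, and 2 regions called in HU and asynchronous cells without a mimosine peak were left out for width. These were chr1:161416684-161428760, of 12077 bp at HU rank 17.1 and asynchronous rank 17.1, and chr17:39257835-39270443, of 12609 bp at HU rank 39.3 and asynchronous rank 61.2. By comparison, 373 regions of all 3 lists reached 8000 bp. The mimosine-missing regions closest to a mimosine peak were chr19:45148496-45149499 (137 bp away), chr3:129115378-129116655 (174 bp) and chr10:80826437-80828015 (370 bp). Just outside the rule, the smallest mimosine overlaps were 162 bp at chr7:1076048-1076850, 208 bp at chr11:113660668-113661321 and 243 bp at chr13:44542317-44542851, where the mimosine peaks scored 64.4, 57.7 and 50.9.

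Most mimosine-missing regions lay well apart from any mimosine peak. The nearest mimosine peak lay a median of 39.3 kb away (interquartile range 13.6 to 103 kb), close to the 42.6 kb (16.1 to 101 kb) from regions of all 3 lists to the next mimosine peak outside them. Within 1 kb there was a mimosine peak for 29 of 1944 regions (1.49%, exact 95% interval 1.00 to 2.14%) and within 5 kb for 218 (11.2%, 9.84 to 12.7%). For regions in all 3 lists the shares were 0.987% and 9.12%. Single-list regions were closer to mimosine peaks, with 25.5% of HU-only and 21.9% of asynchronous-only regions within 5 kb. The most remote mimosine-missing regions were chr13:85508998-85509701, chr4:60684066-60685065 and chr13:83261728-83263286, which lay 4592, 2837 and 2344 kb from any mimosine peak. Their HU ranks were 3.50, 15.3 and 17.0 and their asynchronous ranks 3.59, 11.6 and 0.338.

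The share missing showed no steady order with the local number of BRPF3 sites. In windows of 1 Mb that held 1 or 2 regions called in HU and asynchronous cells, 19.01% had no mimosine peak (exact 95% interval 16.5 to 21.7%). The share was 15.9% (14.7 to 17.2%) in windows with 6 to 10 such regions, 14.7% (12.7 to 16.999%) in those with 16 to 20, and 19.2% (17.2 to 21.3%) in those with 21 to 42. If each rank band had been missing at its rate over chromosomes 1 to 22, these windows would have had 16.2%, 16.2%, 17.7% and 19.4%. The mimosine-missing regions were spread over 1072 windows, of which 610 held a single one.

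By chromosome the share without a mimosine peak ran between 10.3% and 22.0%. Chromosome 6 was highest, with 141 of 642 regions (22.0%, exact 95% interval 18.8 to 25.4%), followed by chromosome 19 with 167 of 808 (20.7%, 17.9 to 23.6%) and chromosome 4 with 88 of 432 (20.4%, 16.7 to 24.5%). Chromosomes 21 and 16 were lowest, with 11 of 107 (10.3%, 5.24 to 17.7%) and 59 of 538 (10.97%, 8.45 to 13.9%). Ranks differed between chromosomes, and at the rates of the asynchronous rank bands chromosome 19 would have had 22.4%, chromosome 6 18.9%, chromosome 16 13.7% and chromosome 21 16.5%. The high share of chromosome 19 thus went with its low median asynchronous rank of 42.4. Chromosomes 18, 6 and 4 stood 3.07, 3.06 and 2.81 percentage points above their values at band rates. For chromosomes 21 and 16 the differences were -6.26 and -2.78 percentage points. The value at band rates lay inside the exact 95% interval of each of these chromosomes. For chromosome 18, with 30 of 171 regions missing, that interval was 12.2 to 24.1%. The intervals of 19 of the 22 chromosomes held the share of 17.1% over all of them, and the exceptions were chromosomes 6 and 19, above it, and chromosome 16, below it.

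**Figure D4:**
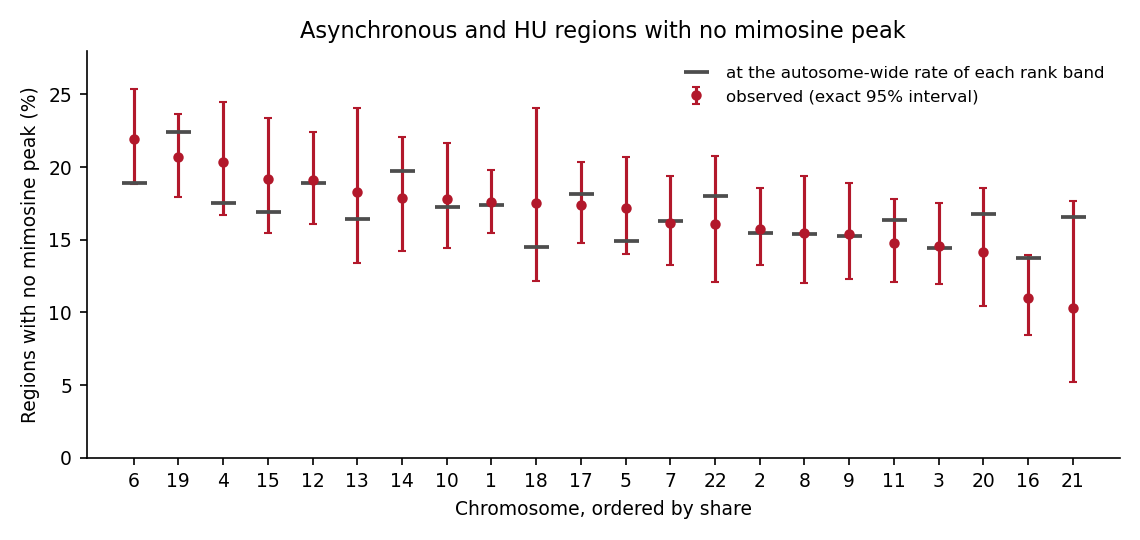
Share of regions called in HU and asynchronous cells with no mimosine peak (%) on each of chromosomes 1 to 22, ordered by the share. Points are the observed shares with exact 95% intervals, and bars mark the share at the autosome-wide rate of each asynchronous rank band. Chromosome 6 has 22.0% against 18.9% at band rates, and chromosome 21 has 10.3% against 16.5%.

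On chromosome 6, many of the mimosine-missing regions lay in 3 Mb of the short arm. The 3 windows of 1 Mb with the most mimosine-missing regions on chromosomes 1 to 22 lay side by side from 26 to 29 Mb, with 12, 18 and 20 of them. This stretch was chosen after its values were seen. As background, it is known for large clusters of histone and transfer RNA genes next to the major histocompatibility complex, but no gene annotation of hg19 was used here, so no region is tied to a gene. In the stretch, 50 of 102 regions called in HU and asynchronous cells had no mimosine peak (49.0%, exact 95% interval 39.0 to 59.1%), against 16.9% (13.8 to 20.3%) of 540 on the rest of chromosome 6 and 16.8% of 11267 on all autosomes outside the stretch. At band rates the rest of chromosome 6 would have had 15.03% and the autosomes outside the stretch 16.9%. The interval of the rest of chromosome 6 held its value at band rates.

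Low ranks went with much of that difference. The median asynchronous rank of the 102 regions was 26.2, against 53.3 elsewhere, and 57.8% of them ranked under 30, against 24.3%. At the rates of the rank bands the stretch would have had 39.4%, compared with the observed 49.0%. The exact 95% interval of the stretch, 39.0 to 59.1%, held that value near its lower end. As the stretch was picked for its high count, that interval is no measure of an excess. Within bands, 14 of 14 regions of asynchronous rank under 10 had no mimosine peak (exact 95% interval 76.8 to 100%), against 88% elsewhere. At 10 to 20 it was 20 of 25 (80%, 59.3 to 93.2%) against 72.3%. At 20 to 30 it was 13 of 20 (65%, 40.8 to 84.6%) against 37.5%, and at 30 to 40 it was 3 of 14 (21.4%, 4.66 to 50.8%) against 13.5%. Only the interval at 20 to 30 left out the value elsewhere. None of the 29 regions of rank 40 or more was missing, which allows a share of up to 11.9% at the exact 95% limit. The mimosine-missing regions there had a median width of 1814 bp, HU rank 17.1 and asynchronous rank 15.5, against 1773 bp, 17.2 and 15.9 for those elsewhere. They lay nearer to a mimosine peak, at a median of 23.8 kb against 40.4 kb.

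**Figure D5:**
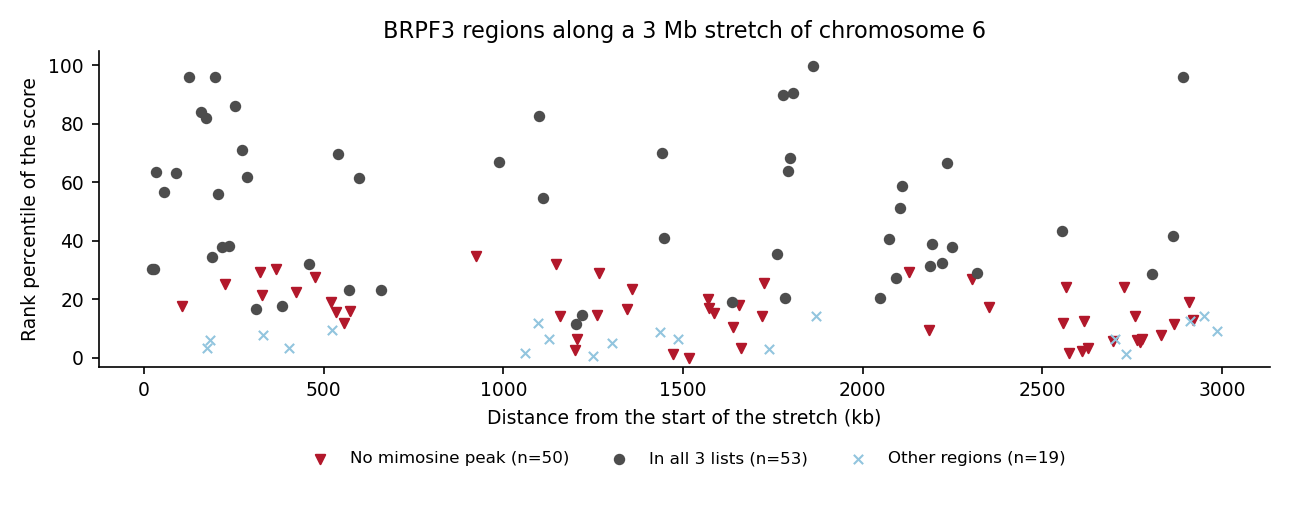
BRPF3 regions along the 3 Mb stretch of chromosome 6, by distance from its start (kb) and rank percentile of the score (asynchronous list, or the HU list where there was no asynchronous peak). Triangles are the 50 regions with no mimosine peak, circles the 53 regions in all 3 lists (1 of them 8000 bp or wider), and crosses other regions. The triangles lie below rank 40 and recur along the stretch beside circles that reach rank 99.7.

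Mimosine-missing regions had a mimosine-missing neighbour somewhat more often than other regions did, but most had none. The next region on one side or the other was also mimosine-missing for 617 of 1944 (31.7%, exact 95% interval 29.7 to 33.9%), against 25.3% (24.4 to 26.2%) of regions in all 3 lists, 25.9% of HU-only and 26.5% of asynchronous-only regions. Without the stretch of chromosome 6 the share was 30.8%, against 25.2% for regions in all 3 lists. At asynchronous ranks under 30 it was 31.8% (29.6 to 34.0%) against 26.5% (23.9 to 29.3%), while in the lowest band it was 32.5% against 36.1% of only 72 regions in all 3 lists. Neighbouring regions are not independent, so these intervals are too narrow.

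Long runs were rare. Of the 1944 regions, 1327 had no mimosine-missing neighbour, 239 runs held 2 of them, 24 held 3 and 10 held 4. The longest run, chr6:28556639-28697561, held 7 over 141 kb, with HU ranks of 1.94 to 31.1 and asynchronous ranks of 1.70 to 24.3. Its first region was 492 bp from a region of all 3 lists, and the mimosine peaks nearest to the 7 lay 0.976 to 108 kb away. Its best-ranked member was chr6:28564708-28566787, at HU rank 31.1 and asynchronous rank 24.3.

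The 4 runs of 5 lay on chromosomes 5, 6, 12 and 19. The run chr12:53737932-53782353 was the most compact, at 44.4 kb. It held chr12:53773613-53778061, with an HU peak of 2668 bp at rank 28.1 and an asynchronous peak of 4357 bp at rank 40.5. The run chr6:27639456-27726654 lay in the same stretch as the longest one and spanned 87.2 kb, with HU ranks of 8.91 to 19.03 and asynchronous ranks of 3.46 to 25.6. The run chr19:36499597-36620206 reached the highest HU rank of these runs, at chr19:36604172-36607507 with HU rank 42.4 and asynchronous rank 39.5. The run chr5:141823862-141978316 spanned 154 kb, and the nearest mimosine peaks were 81.3 to 185 kb away. Runs thus formed both beside retained sites and far from them.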

How the data were processed

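ChIP-seq peak lists of 3 BRPF3 libraries from RKO cells were used, 1 per condition, each called against the IgG library of HU cells, per the names of the deposited lists. The submitters' processing notes list MACS 1.4.0, Bowtie 0.12.8, bedtools and SAMtools and give no role for any of them. The deposited score of each peak was read as 10 times the negative base-10 logarithm of a p-value, because the lists look like MACS output and start at 50. The other deposited values are peak starts and ends. The submitters' processing notes name hg18 and hg19. On the 7 chromosomes compared, 0 peaks ended past the chromosome in hg19, 323 in hg18 and 88 in GRCh38, so hg19 was used. The labels disagree on the protein in 1 field, which names BRPF1/2, and BRPF3 was taken from the title and antibody. Reads and depth were not analysed here. The gene table and promoter sequences used here are of GRCh38, so no gene, promoter or sequence was assigned.

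Peaks overlapping by 1 bp were merged with Python 3.11.15 (NumPy 2.4.6, pandas 2.3.3, SciPy 1.17.1), and figures drawn with matplotlib 3.10.9. Ranks are within each list as deposited, ties averaged. Values at band rates apply the share missing in each asynchronous rank band over chromosomes 1 to 22. Shares have exact Clopper-Pearson 95% intervals, which treat regions as independent. The 95% intervals of medians, used only to compare settings, run between sorted values at binomial limits around the middle. They treat regions as independent too. The code was tested on simulated data with known missing regions. Named regions are the 10 of highest lower rank, the 5 widest, the longest runs (4 tied, all given) and those nearest the limits of the rule. The regions and comparisons were chosen with earlier results of these data known.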

Additional observations from a re-analysis of the deposited data

How the results depend on the processing

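No paired analysis was possible because each condition had 1 BRPF3 library, and for the same reason no replicate could be left out. Of 114 values recomputed under 14 settings, 62 stayed inside the 95% interval of the main value and 52 moved. The number of regions was instead counted as staying if it was within 1.5 times of its main value. The number of mimosine-missing regions was 3374 with mimosine peaks of score 100 or more only, 883 with HU and asynchronous peaks of that score only, and 357 with equal numbers of 5766 top peaks. It stayed within 1.5 times of 1944 in the other settings in which it was recomputed, which leave out the score cap, the averaging over rank bands and the distances of 10 and 100 kb. The share of regions without a mimosine peak was 21.3% with a score of 100 or more in every list, 29.7% with mimosine peaks, and 8.70% with HU and asynchronous peaks, limited to that score. It was 7.53% with equal numbers and 23.6% with a width limit of 4000 bp.

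With a score of 100 or more in every list, the mimosine-missing regions had a median width of 2313 bp (3652 bp in all 3 lists), HU rank 28.3, asynchronous rank 27.96, a gap of 50.9 kb to a mimosine peak, a shared part of 0.849 and centres 106.5 bp apart. The share missing was 28.1% on chromosome 6, 74.2% at asynchronous ranks of 20 to 30 and 18.9% at 40 to 50, and 38.3% had a mimosine-missing neighbour. With mimosine peaks of that score only, these values were 2041 bp (3655 bp in all 3 lists), HU rank 22.8 and asynchronous rank 21.6, 48.8 kb, 0.833 shared, 36.9% on chromosome 6, 21.5% on chromosome 21, 98.7%, 76.3% and 18.9% at asynchronous ranks of 0 to 10, 20 to 30 and 40 to 50, and 48.6% with such a neighbour. With HU and asynchronous peaks of that score only, they were 2073 bp, HU rank 23.6 and asynchronous rank 23.5, 44.8 kb, 0.844 shared, 12.8% on chromosome 6, 34.4% at ranks of 20 to 30, and 22.7% with such a neighbour. In both settings that limit asynchronous peaks, no region of rank 0 to 10 was left.

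Equal numbers gave 3657 bp (4296 bp in all 3 lists), HU rank 63.1 and asynchronous rank 64.9, 103.9 kb, 0.873 shared and centres 139.5 bp apart. By construction this setting keeps only higher ranks. The width of regions in all 3 lists was 3480 bp with peaks within 1 kb merged, 2926 bp under a limit of 4000 bp and 3509 bp with no limit. Another mimosine-missing region lay within 10 kb for 9.002% and within 100 kb for 34.4%. Without 26 to 29 Mb, a setting added after seeing the data, chromosome 6 had 16.9%. Adding chromosome X and averaging over rank bands moved no value out of its interval. Capping the score at 3100 only ties the highest scores. By construction it could not move the shares recomputed, which were at asynchronous ranks under 50, yet they count among the 62 values that stayed. With chromosome X added there were 2054 mimosine-missing regions and a share of 17.5%, against 1944 and 17.1% without it. The share on chromosome X alone was not computed. These pooled counts and shares place it above 17.5%, and above the 21.96% of chromosome 6, the highest of the other chromosomes. No interval or comparison of ranks was made for chromosome X alone. By construction, score limits on HU and asynchronous peaks leave out low ranks, and each width limit sets which wide regions are kept. For the other moved values the cause was not tested. With the depth of each library unknown, a missing peak cannot be told apart from a peak just under the limit of calling.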
